A study of Mus musculus with 2 samples.

Results

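The genes described here carry glucose into the cell and break it down to lactate. They are the glucose transporter Slc2a1, the hexokinases Hk1 and Hk2, and the later enzymes Gpi1, Aldoa, Pgk1, Eno1, Pkm and Ldha, together with Txnip, an arrestin-like protein that removes glucose transporters from the cell surface. The 10 genes were chosen by name for their place in this pathway, out of 27998 features, with earlier results of these data known. They were followed in the mouse cornea and limbus rim, cell by cell, profiled by the 10x Genomics droplet method in 1 female carrying a single working copy of the autophagy gene Becn1 (Beclin1 +/-) and 1 female wild-type littermate, both C57BL/6 and 28 days old. Autophagy is the route by which cells digest their own parts, and beclin 1 helps to start it. Each genotype was 1 animal and 1 library, so genotype, animal and preparation cannot be told apart, and no test between genotypes was possible.

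The corneal epithelium is renewed from stem cells in the limbus, the ring between cornea and conjunctiva. Daughter cells join the basal layer, rise through the wing layers and are shed from the surface. The cornea has no blood vessels and takes its glucose mainly from the fluid behind it. Hexokinase traps glucose by phosphorylation, the following enzymes split the sugar and harvest energy, and lactate dehydrogenase turns the end product, pyruvate, into lactate. Many of these genes are switched on by hypoxia-inducible factor, while Txnip is known to be switched on when sugar phosphates accumulate.

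Cells were placed in classes by marker level in CPM, a gene's UMI count scaled to a fixed total. A UMI is a tag that marks 1 captured RNA molecule. Limbal cells had at least 500 CPM of Gpha2 and 2000 of Krt14, basal cells at least 2000 of Krt14 and 8000 of Krt12, wing cells at least 20000 of Krt12 and under 2000 of Krt14, surface cells at least 1000 of Lce3a, and stromal cells at least 5000 of Dcn. Of 4942 cells kept in the heterozygote library, 367 were limbal, 1543 basal, 979 wing, 117 surface and 1337 stromal. In the wild-type library of 2462 cells the numbers were 231, 859, 519, 54 and 556. A cell could meet more than 1 rule, which 126 heterozygote and 61 wild-type cells did, and 725 and 304 cells met none. The least sharp boundary was that of the wing class, with 203 of 979 heterozygote and 96 of 519 wild-type cells within 20% of a limit. Not all of the markers named here that the rules did not use went with the labels. Krt15, a limbal keratin, averaged 4019 and 5019.8 CPM in limbal cells of the heterozygote and wild-type libraries, against 952 and 842 in basal cells and 2426 and 1675 in wing cells. Lrig1, another limbal marker, went against the label, at 14.3 and 10.3 CPM in limbal against 15.0 and 17.6 in basal cells. Cd63, listed with them, had 348 and 333 CPM in limbal against 88.6 and 78.0 in basal cells, but 3782 and 3799 in stroma. Psca, of the surface, stood at 33122 and 36705 CPM in surface cells. Muc16, listed with it, went against the label, with no UMI in surface cells of either library. In the heterozygote Muc16 did have UMIs in limbal, basal and wing cells. Lum, of the stroma, stood at 4953 and 4923 CPM in stromal cells. Krt13, which conjunctiva also makes, reached 1874 and 2007 CPM in surface cells, while the goblet cell mucin Muc5ac was at 0 there.

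The libraries differed in depth. Median UMIs per cell in the heterozygote and wild-type libraries were 10217 and 14566 in limbal, 12040 and 17745 in basal, 15470 and 23199 in wing, 19931 and 29288 in surface, and 8165 and 11689.5 in stromal cells. Only 15 barcodes occurred in both libraries. Becn1 itself had 43.0 CPM in the heterozygote and 42.6 CPM in wild type, with overlapping counting intervals (41.5 to 44.5 and 40.9 to 44.4). The deleted stretch of Becn1 is not given, and 3′ tags that lie outside it would be made from both alleles, so this level is no check of the genotype. All levels below are the gene's UMIs summed over a class, in CPM. Intervals are exact 95% Poisson or conditional binomial intervals, and they cover counting error only, not variation between animals. A gene counted as measured at a mean of at least 20 CPM in the pair compared. It counted as past the fold at 1.5 times or more in the same direction in both libraries between classes, or at 1.3 times between genotypes. Positions are those of mm10 in GENCODE M21.

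Summed over the 9 genes other than Txnip, the pathway was as abundant in limbal as in basal cells and lower towards the surface. The sum was 1938 CPM in limbal, 2012 in basal, 1494 in wing, 479 in surface and 1953 in stromal cells of the heterozygote. In wild type it was 2003, 2145, 1651, 535 and 1835 CPM in the same order. The genes did not move as a block: Slc2a1 had already dropped in wing cells, 5 enzymes passed the fold only in surface cells within the epithelium, Aldoa stayed within 1.5 times of its basal level, and Txnip was highest in limbal cells.

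**Figure D1:**
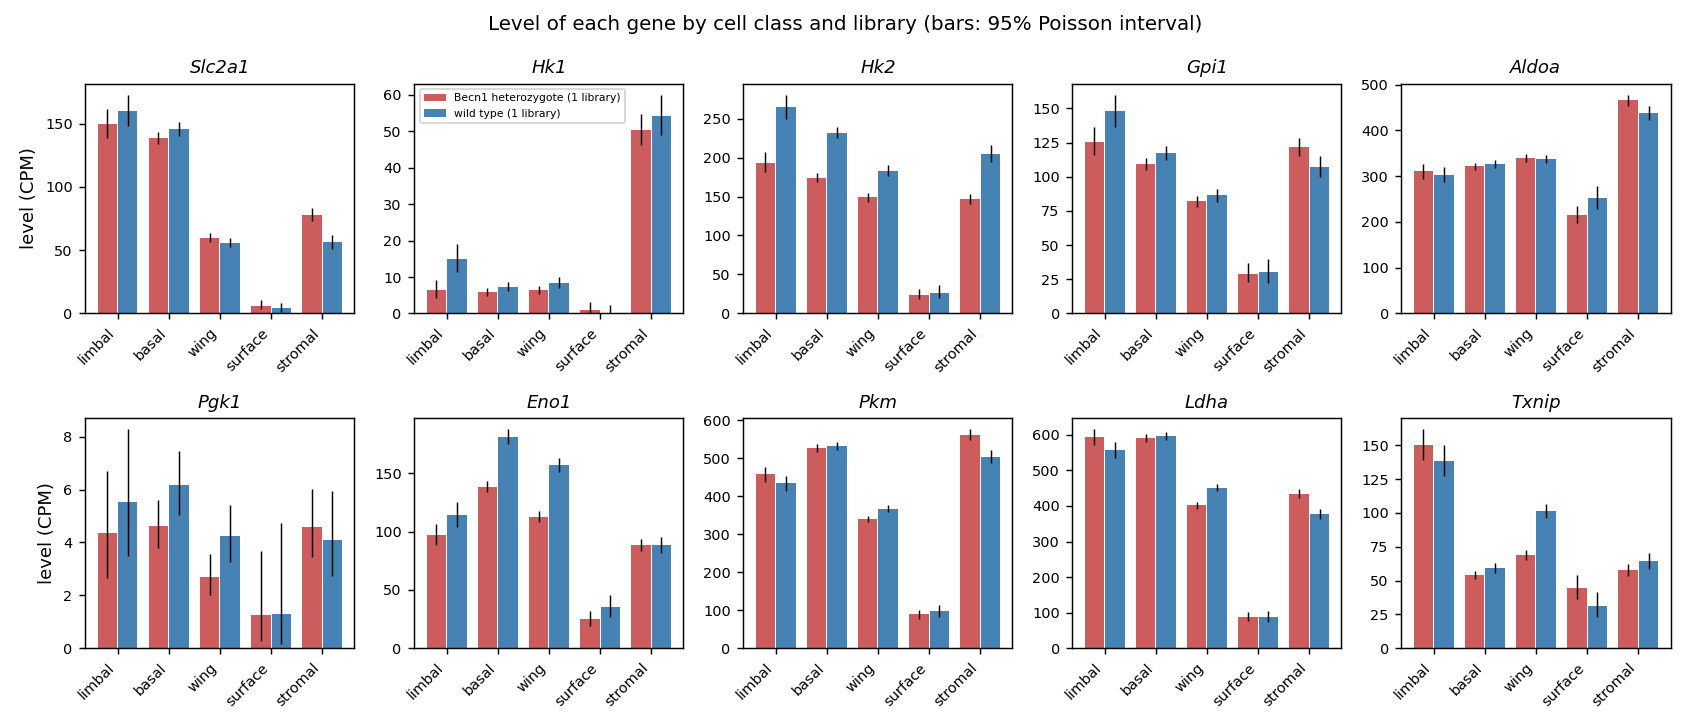
Level of each of the 10 genes in CPM (vertical axis) in limbal, basal, wing, surface and stromal cells, heterozygote in red and wild type in blue, with 95% Poisson intervals. Slc2a1 stepped down at the wing layer, most enzymes at the surface, Hk1 stood out in stroma and Txnip in limbal cells.

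Slc2a1, also called GLUT1, is the main glucose entry route of the epithelium (chr4:119108711-119137983, plus strand, mm10). In the heterozygote it had 149.8 CPM in limbal, 139 in basal, 59.9 in wing, 6.26 in surface and 78.1 in stromal cells. In wild type it had 160.4, 146, 56.0, 3.92 and 56.3 CPM in the same order of classes. The order was the same in both libraries, from high to low limbal, basal, stromal, wing, surface. Counting intervals of neighbours overlapped for limbal with basal in the heterozygote and for limbal with basal and stromal with wing in wild type. Set against basal cells, the log2 ratio in wing cells was -1.21 (interval -1.31 to -1.11) in the heterozygote and -1.38 (interval -1.50 to -1.27) in wild type. Slc2a1 was the only one of 8 measured members past the fold in that comparison in both libraries. Of all measured genes 12.1% were lower and 14.9% higher, so 1 of 8 lower is near the share of all genes. In surface cells only 15 UMIs were counted in the heterozygote and 6 in wild type, giving log2 ratios of -4.42 (interval -5.31 to -3.75) and -5.10 (interval -6.67 to -4.10). Limbal and basal cells differed little, by 0.11 (interval -0.012 to 0.23) and 0.14 (interval 0.012 to 0.26).

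The fall in wing cells was also seen in the share of cells with a Slc2a1 UMI. After every cell was thinned to 5000 UMIs, that share was 23.2% in wing against 45.9% in basal cells of the heterozygote, and 21.8% against 48.1% in wild type. Without thinning the shares were 51.2% against 74.3% and 63.2% against 83.8%. In thinned surface cells the shares were 3.42% (interval 0.939 to 8.52%) and 0% (up to 6.60%), a level that includes any free RNA. Slc2a3, the transporter best known from neurons, was scarce, and Slc2a1 made up 99.2% to 100% of the UMIs of the pair in limbal, basal, wing and stromal cells.

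Of the hexokinases, only Hk1 was past the fold between stroma and basal cells. Hk2, the inducible form (chr6:82725025-82774454, minus strand), had 193 CPM in limbal, 174 in basal, 149 in wing, 24.2 in surface and 147 in stromal cells of the heterozygote. In wild type it had 265, 232, 183, 26.8 and 205 CPM in the same order of classes. Hk1, the housekeeping form (chr10:62268855-62379908, minus strand), had 6.30 CPM in limbal, 5.81 in basal, 6.38 in wing, 0.834 in surface and 50.4 in stromal cells of the heterozygote, and 14.9, 7.34, 8.43, 0 and 54.3 CPM in the same order of classes in wild type. For Hk2 the order was from high to low limbal, basal, wing, stromal, surface in the heterozygote, and limbal, basal, stromal, wing, surface in wild type. Neighbours overlapped in counting interval for wing with stromal in the heterozygote and for none in wild type. The wild-type surface cells held 0 of 1532359 UMIs of Hk1, which allows a level of up to 1.96 CPM. Hk1 was above 20 CPM only in stroma, where the log2 ratio over basal cells was 3.11 (interval 2.84 to 3.40) in the heterozygote and 2.88 (interval 2.59 to 3.19) in wild type. Hk2 made up 74.4% (72.6 to 76.2%) of the UMIs of the pair in stromal cells of the heterozygote and 79.1% (77.1 to 80.9%) in wild type. In limbal, basal and wing cells its share lay between 94.7% and 96.9%. Hk2 itself was close to its basal level in stroma, with log2 ratios of -0.25 (interval -0.33 to -0.17) and -0.18 (interval -0.27 to -0.09). Tags are counted at transcript ends, so a share compares classes and does not give the ratio of the 2 proteins. Within the epithelium Hk2 fell past the fold only at the surface, by log2 ratios of -2.84 (interval -3.25 to -2.48) and -3.10 (interval -3.60 to -2.67).

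The stretch of 250 bases before the Hk2 start is shown because it holds the letters ACGTG, the core that hypoxia-inducible factor is known to bind, at 2 places. It is taken from RefSeq on GRCm38.p6 (the mm10 assembly), chr6:82774455-82774704, minus strand, written in the direction of the gene, with the core, read on either strand, in capitals.
Hk2 promoter: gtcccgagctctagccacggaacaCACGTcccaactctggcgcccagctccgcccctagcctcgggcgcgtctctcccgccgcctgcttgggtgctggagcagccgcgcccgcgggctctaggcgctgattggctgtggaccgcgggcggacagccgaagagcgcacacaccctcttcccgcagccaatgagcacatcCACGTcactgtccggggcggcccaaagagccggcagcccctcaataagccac
Searching both strands, ACGTG occurred in 16.6% of 32851 such windows of the genome and in 7 of the 17 windows that matched the 10 members, which belonged to Aldoa, Hk2, Ldha, Pgk1, Pkm and Slc2a1. The match is of letters alone, and binding was not measured.

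Gpi1 converts glucose 6-phosphate to fructose 6-phosphate (chr7:34201330-34230336, minus strand). It had 126 CPM in limbal, 109.5 in basal, 81.9 in wing, 29.2 in surface and 122 in stromal cells of the heterozygote, and 148, 118, 86.4, 30.0 and 107 CPM in the same order of classes in wild type. The order was from high to low limbal, stromal, basal, wing, surface in the heterozygote, and limbal, basal, stromal, wing, surface in wild type. Counting intervals of neighbours overlapped for limbal with stromal in the heterozygote and for basal with stromal in wild type. Gpi1 was past the fold lower at the surface, with log2 ratios over basal cells of -1.90 (interval -2.27 to -1.56) and -1.95 (interval -2.42 to -1.55). Under TMM scaling they were -0.45 in the heterozygote, short of 1.5 times, and -0.60 in wild type. The next enzyme, phosphofructokinase, commits the sugar to glycolysis. Its platelet-type gene Pfkp made up 36.8% (31.2 to 42.7%) and 42.9% (37.0 to 49.0%) of the UMIs of Pfkl, Pfkm and Pfkp in limbal cells of the heterozygote and wild type. In basal cells the shares were 21.3% (18.5 to 24.2%) and 19.5% (16.5 to 22.7%), and in wing cells 15.2% and 13.3%. Limbal cells had the largest Pfkp share of the 5 classes in both libraries.

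Aldoa, which splits the 6-carbon sugar, did not fall past the fold at the surface, unlike the other enzymes measured there (chr7:126795234-126800751, minus strand). It had 311 CPM in limbal, 322 in basal, 339.6 in wing, 215 in surface and 466 in stromal cells of the heterozygote, and 303, 326, 338, 252 and 438 CPM in the same order of classes in wild type. The surface level was -0.58 (interval -0.71 to -0.45) and -0.37 (interval -0.53 to -0.22) on the log2 scale against basal cells, short of 1.5 times in both libraries. The median of all measured genes in that comparison was -1.36 and -1.34. Under TMM scaling, which centres most genes, Aldoa was higher at the surface by 0.87 and 0.99. The order was the same in both libraries, from high to low stromal, wing, basal, limbal, surface. Neighbours overlapped in counting interval for basal with limbal in the heterozygote and for wing with basal and basal with limbal in wild type.

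Pgk1 makes the first ATP of the pathway (chrX:106187100-106203699, plus strand). Its counts were too low to follow, with 1.25 to 4.63 CPM in the heterozygote and 1.31 to 6.17 in wild type, below 20 CPM in all 5 classes. The counted copy Pgk1-rs7 had at most 0.435 CPM. Reads that fit several gene copies may be left out of such counts, and 7.32% of the 50-base stretches in the last 500 bases of the Pgk1 transcript also occur in other genes. For Eno1, which forms phosphoenolpyruvate (chr4:150236721-150248879, plus strand), that figure was 70.7% to 83.4% over its 4 annotated ends, so the Eno1 levels are uncertain. The highest such figure was 30.4% for Aldoa, 49.4% for Gpi1, 40.8% for Pkm and 34.4% for Ldha, and 0% for Slc2a1, Hk1, Hk2 and Txnip. Eno1 had 97.2 CPM in limbal, 139 in basal, 113 in wing, 25.03 in surface and 88.4 in stromal cells of the heterozygote, and 114, 181, 157, 35.2 and 88.5 CPM in the same order of classes in wild type. Its copy Eno1b had at most 1.66 CPM. The order was the same in both libraries, from high to low basal, wing, limbal, stromal, surface. Neighbours overlapped in counting interval for limbal with stromal in the heterozygote and for none in wild type. Eno1 was past the fold lower in surface cells (-2.46 and -2.35) and in stromal cells (-0.65 and -1.03). In limbal cells its log2 ratio over basal cells was -0.51 (interval -0.66 to -0.37) in the heterozygote and -0.66 (interval -0.81 to -0.53) in wild type. That was past 1.5 times in wild type alone, but in both libraries under TMM scaling. In the heterozygote the stromal ratio fell short of 1.5 times under 3 alternatives: -0.58 with looser class limits, -0.47 in cells of at least 10000 UMIs and -0.57 in cells of 10000 to 20000 UMIs.

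Pkm and Ldha carry the last steps, to pyruvate and then to lactate. Pkm (chr9:59656368-59679375, plus strand) had 458 CPM in limbal, 527 in basal, 340.2 in wing, 88.8 in surface and 563 in stromal cells of the heterozygote, and 434, 532, 367, 97.2 and 504 CPM in the same order of classes in wild type. Ldha (chr7:46841475-46855627, plus strand) had 593 CPM in limbal, 591 in basal, 402 in wing, 88.8 in surface and 435 in stromal cells of the heterozygote, and 558, 597, 451, 88.8 and 378 CPM in the same order of classes in wild type. The Pkm order was from high to low stromal, basal, limbal, wing, surface in the heterozygote, and basal, stromal, limbal, wing, surface in wild type. In neither library did neighbours overlap in counting interval. The Ldha order was from high to low limbal, basal, stromal, wing, surface in the heterozygote, and basal, limbal, wing, stromal, surface in wild type. Neighbours overlapped in counting interval for limbal with basal in the heterozygote and for none in wild type. Both genes were lower in wing than in basal cells, though not by 1.5 times in both libraries, with log2 ratios of -0.63 and -0.54 for Pkm and -0.56 and -0.40 for Ldha. At the surface the log2 ratios were -2.57 (interval -2.77 to -2.37) and -2.45 (interval -2.70 to -2.22) for Pkm, and -2.73 (interval -2.94 to -2.54) and -2.74 (interval -3.00 to -2.50) for Ldha. Ldhb, the form that favours making pyruvate, was past the fold higher in stroma, at 33.0 CPM in stromal against 9.89 CPM in basal cells of the heterozygote, and 28.9 against 10.2 CPM in wild type. Ldha made up 93.0% (92.2 to 93.6%) and 92.9% (91.9 to 93.8%) of the Ldha and Ldhb UMIs in stromal cells, against 98.4% (98.1 to 98.6%) and 98.3% (98.1 to 98.6%) in basal cells.

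The Ldha promoter is shown for its 3 places with the hypoxia core, more than in either of the other 2 promoters printed here. It is also the only one of the 17 member windows with the full palindrome CACGTG, an E box, which it holds at 2 places, while 6.02% of all windows hold one. The window is chr7:46845554-46845803, plus strand, RefSeq on GRCm38.p6, with the core or the palindrome in capitals.
Ldha promoter: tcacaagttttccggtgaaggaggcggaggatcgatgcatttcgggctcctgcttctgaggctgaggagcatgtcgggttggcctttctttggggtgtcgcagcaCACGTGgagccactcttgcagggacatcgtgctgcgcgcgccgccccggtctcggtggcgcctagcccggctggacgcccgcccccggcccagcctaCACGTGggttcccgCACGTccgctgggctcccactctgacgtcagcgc
The table lists 2 Ldha starts, and the window of the other one held none of the motifs searched.

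Surface cells carried less of 6 of the 8 measured members in both libraries, namely Slc2a1, Hk2, Gpi1, Eno1, Pkm and Ldha, while 61.8% of all measured genes were lower there and 19.8% higher. A count of 6 of 8 members lower is close to the share of all genes. The members' median log2 ratio was -2.51 in the heterozygote and -2.40 in wild type, against -1.36 and -1.34 over all measured genes. Of the other glycolytic enzymes 3 of 4 measured were lower, such as Gapdh at 194 CPM in surface against 861 CPM in basal cells of the heterozygote, and 177 against 861 CPM in wild type. Pgam1 was lower still, at 14.2 CPM in surface against 142 CPM in basal cells of the heterozygote, and 12.4 against 145 CPM in wild type. Taldo1, a pentose phosphate enzyme, went the other way, at 1024 CPM in surface against 256 CPM in basal cells of the heterozygote, and 1107 against 252 CPM in wild type, while its partner Tkt, a very abundant enzyme of the mouse cornea, had 191 CPM in surface against 3918 CPM in basal cells of the heterozygote, and 198 against 4681 CPM in wild type. With TMM scaling the median over all genes moved up by 1.45 and 1.36, and 5 of the 8 members were past the fold lower, Gpi1 being the one lost.

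**Figure D2:**
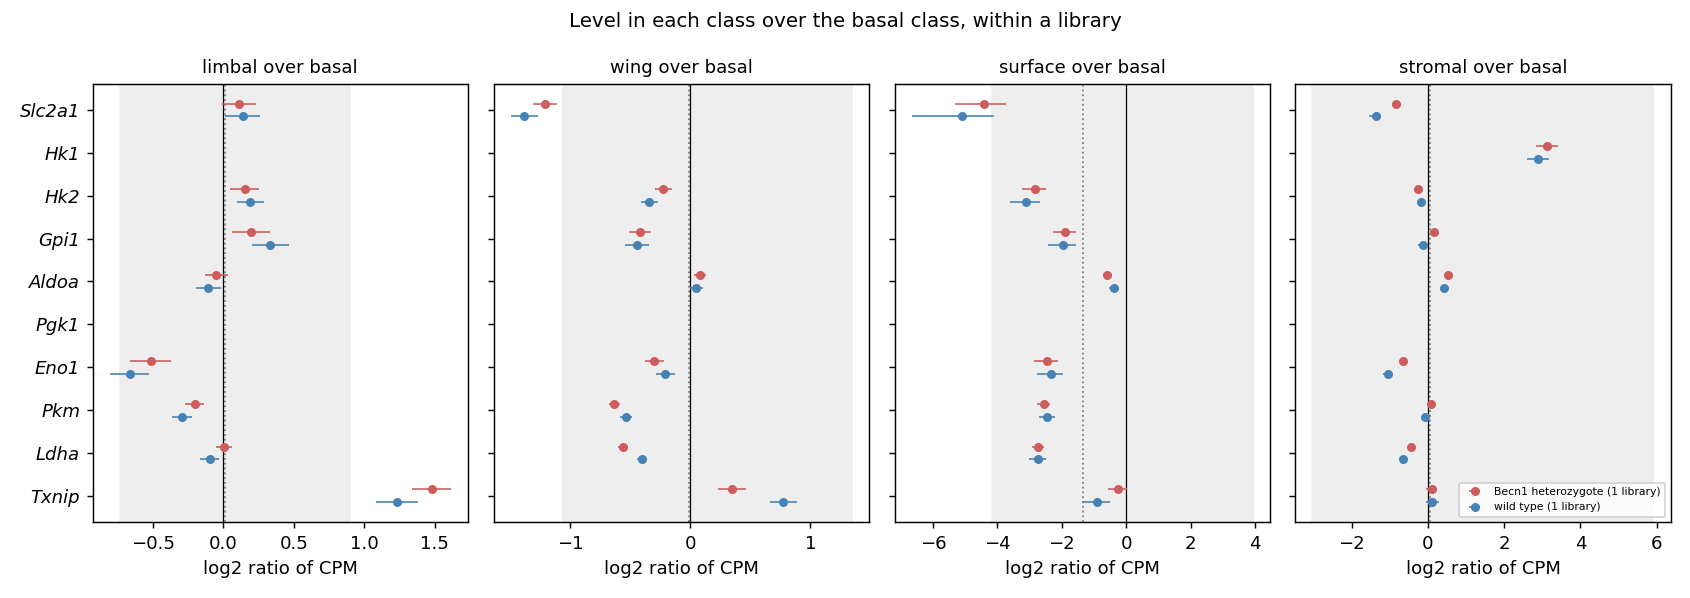
Log2 ratio of the level in limbal, wing, surface and stromal cells over basal cells (horizontal axis), heterozygote in red and wild type in blue, with 95% counting intervals, shading for the 5th to 95th percentile of all measured genes, a dotted line at their median, and no point for a gene below 20 CPM. In the surface panel Slc2a1 lies farthest left, and Aldoa and Txnip lie right of the all-gene median.

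Lists of genes next to the pathway were counted against basal cells in the same way. Beside them stand the shares of all measured genes past the fold, which were 6.30% higher and 5.52% lower in limbal, 14.9% higher and 12.1% lower in wing, 19.8% higher and 61.8% lower in surface and 30.8% higher and 24.8% lower in stromal cells. At the surface, 3 of 4 or 3 of 5 lower is close to the share of all genes. Counted so, the other glycolytic enzymes past the fold were 0 higher and 0 lower of 5 in limbal cells, 1 higher and 1 lower of 5 in wing cells, 0 higher and 3 lower of 4 in surface cells and 1 higher and 0 lower of 5 in stromal cells. In wing cells these were Gapdh, at 492 CPM in wing against 861 CPM in basal cells of the heterozygote, and 537 against 861 CPM in wild type, and the brain-type aldolase Aldoc, at 35.8 CPM in wing against 17.4 CPM in basal cells of the heterozygote, and 35.6 against 22.2 CPM in wild type. The only other carrier gene measured in all classes was Bsg, past the fold lower in surface and higher in stromal cells. Genes that set fructose 2,6-bisphosphate or pyruvate entry were 0 higher and 1 lower of 4 in limbal cells, 0 higher and 0 lower of 4 in wing cells, 0 higher and 2 lower of 4 in surface cells and 1 higher and 1 lower of 5 in stromal cells. Of these Mpc2, a subunit of the mitochondrial pyruvate carrier, had 304 CPM in limbal against 479 CPM in basal cells of the heterozygote, and 272 against 464 CPM in wild type.

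Pentose phosphate genes, which make NADPH and ribose from glucose 6-phosphate, were 0 higher and 2 lower of 5 in limbal cells, 3 higher and 1 lower of 5 in wing cells, 1 higher and 3 lower of 5 in surface cells and 0 higher and 5 lower of 5 in stromal cells. In wing cells G6pdx, the entry enzyme, rose to 79.1 CPM in wing against 43.1 CPM in basal cells of the heterozygote, and 84.8 against 41.8 CPM in wild type, and Taldo1 to 519 CPM in wing against 256 CPM in basal cells of the heterozygote, and 471 against 252 CPM in wild type. Glycogen and gluconeogenesis genes were 0 higher and 1 lower of 2 in limbal cells, 1 higher and 0 lower of 2 in wing cells, 0 higher and 2 lower of 2 in surface cells and 1 higher and 1 lower of 3 in stromal cells. Pygl, which breaks down glycogen, had 10.9 CPM in limbal against 39.0 CPM in basal cells of the heterozygote, and 8.15 against 48.6 CPM in wild type. The list of hypoxia-inducible genes outside glycolysis also held the genes of the factor itself, Hif1a, and of its close relative Epas1. Its genes were 1 higher and 2 lower of 10 in limbal cells and 1 higher and 3 lower of 9 in wing cells. In surface cells they were 0 higher and 7 lower of 9, and in stromal cells 6 higher and 4 lower of 13. They did not move together in the wing layer, where Egln3, a prolyl hydroxylase, rose to 369.6 CPM in wing against 147 CPM in basal cells of the heterozygote, and 423 against 149 CPM in wild type, and Hif1a, the oxygen-sensitive factor itself, fell to 57.8 CPM in wing against 134 CPM in basal cells of the heterozygote, and 69.6 against 158 CPM in wild type. In limbal cells Epas1, its close relative, had 211 CPM in limbal against 114 CPM in basal cells of the heterozygote, and 194 against 99.1 CPM in wild type. Arrestins and glucose-sensing genes were 1 higher and 0 lower of 6 in limbal cells, 1 higher and 1 lower of 7 in wing cells, 3 higher and 3 lower of 7 in surface cells and 1 higher and 2 lower of 6 in stromal cells. Immediate early genes were 4 higher and 0 lower of 15 in limbal cells, 2 higher and 1 lower of 15 in wing cells, 2 higher and 7 lower of 13 in surface cells and 8 higher and 0 lower of 14 in stromal cells.

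Stroma, the collagen-rich tissue under the epithelium, differed from basal cells in 3 members. Beside Hk1, past the fold higher, only Slc2a1 and Eno1 of 9 measured members were past the fold, both lower, where 30.8% of all measured genes were higher and 24.8% lower. The share of members past the fold was no higher than among all genes. Bsg, the partner of the lactate carriers, had 780.2 CPM in stromal against 408 CPM in basal cells of the heterozygote, and 796 against 426 CPM in wild type. Slc16a3, a lactate exporter picked here after its values were seen, was too low for the rule but had 32.4 CPM in stromal against 0.771 CPM in basal cells of the heterozygote, and 24.9 against 0.408 CPM in wild type. Pfkfb3, whose product speeds up phosphofructokinase, had 74.5 CPM in stromal against 12.9 CPM in basal cells of the heterozygote, and 76.9 against 11.1 CPM in wild type. All 5 measured pentose phosphate genes were lower in stroma, among them G6pdx, the entry enzyme, at 8.05 CPM in stromal against 43.1 CPM in basal cells of the heterozygote, and 6.46 against 41.8 CPM in wild type. Of the genes in the hypoxia-inducible list 6 of 13 were higher and 4 lower. P4ha1, which modifies collagen, had 137 CPM in stromal against 18.8 CPM in basal cells of the heterozygote, and 127 against 19.8 CPM in wild type, and Ndrg1 had 42.9 CPM in stromal against 517 CPM in basal cells of the heterozygote, and 55.8 against 496 CPM in wild type. Immediate early genes, which enzymatic dissociation can switch on, were higher in stroma as well, 8 of 14 past the fold and none lower, and their part in these levels was not tested.

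**Figure D3:**
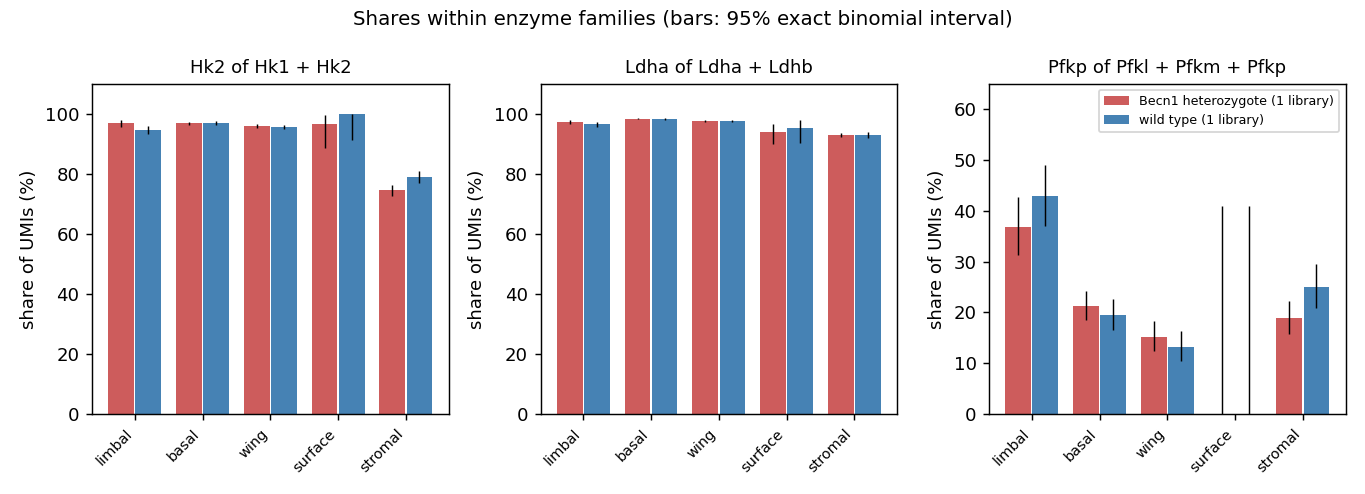
Share of UMIs in percent (vertical axis) held by Hk2, Ldha and Pfkp within their enzyme families by cell class, heterozygote in red and wild type in blue, with 95% exact binomial intervals. Hk2 and Ldha take a smaller share in stroma than in basal cells, Pfkp is largest in limbal cells, and surface cells had 0 of 7 UMIs of Pfkp in each library (interval up to 41.0%).

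Txnip was the one member past the fold between limbal and basal cells in both libraries (chr3:96557957-96561883, plus strand). It had 150.2 CPM in limbal, 53.9 in basal, 68.6 in wing, 44.6 in surface and 57.7 in stromal cells of the heterozygote. In wild type it had 139, 59.1, 101, 31.3 and 64.1 CPM in the same order of classes. The order was the same in both libraries, from high to low limbal, wing, stromal, basal, surface. Counting intervals of neighbours overlapped for stromal with basal and basal with surface in the heterozygote and for stromal with basal in wild type. The second place of wing cells rested on the minority with at least 500 CPM of Pax6. Without those, wing cells had 38.8 CPM in the heterozygote and 34.8 CPM in wild type, below stroma and close to basal cells treated alike (37.3 and 34.8). Limbal cells were higher than basal cells by log2 ratios of 1.48 (interval 1.34 to 1.61) and 1.23 (interval 1.08 to 1.38), and no other member of 8 measured was past the fold there, against 6.30% of all measured genes higher and 5.52% lower. Cells that met the limbal but not the basal rule had 152 and 140.4 CPM, those that met both had 147 and 131, and those that met the basal rule alone had 46.7 and 55.8. Cells with both sets of markers were close to the rest of the limbal class. Txnrd1, which reduces the thioredoxin that Txnip binds, was higher in limbal cells too, at 71.3 CPM in limbal against 40.0 CPM in basal cells of the heterozygote, and 75.8 against 37.2 CPM in wild type. Tkt and G6pdx were the 2 pentose phosphate genes lower there, with 1665 CPM in limbal against 3918 CPM in basal cells of the heterozygote, and 1364 against 4681 CPM in wild type for Tkt.

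The Txnip promoter is printed because it holds 2 E box-like elements 5 bases apart, the arrangement known as a carbohydrate response element, which sugar-sensing Mondo factors bind. Written as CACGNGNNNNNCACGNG, it was searched on both strands and occurred in 15 of 32851 windows (0.0457%), 1 of them that of Txnip. The window is chr3:96557707-96557956, plus strand, RefSeq on GRCm38.p6, where an exon of the non-coding gene Gm15441 also lies, and the fixed letters of the motif are in capitals.
Txnip promoter: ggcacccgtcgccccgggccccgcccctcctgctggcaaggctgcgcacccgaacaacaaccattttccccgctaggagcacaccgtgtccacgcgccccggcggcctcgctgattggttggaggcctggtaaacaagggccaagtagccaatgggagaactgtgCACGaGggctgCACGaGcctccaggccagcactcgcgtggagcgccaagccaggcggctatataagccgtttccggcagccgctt
The match begins 85 bases before the start. Neither Mondo binding nor sugar levels were measured.

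Txnip was spread unevenly over the cells of a class. At 5000 UMIs per cell the variance of Txnip over cells was 3.10 and 3.65 times its mean in limbal cells. In wing cells it was 2.29 and 2.24 times. For Slc2a1 in basal cells the values were 1.70 and 1.57, but gene and class both differ in that comparison. High Txnip went with high Pax6, the master transcription factor of the eye. The link was noticed after the values were seen, and the limit of 500 CPM was set then. Cells past it numbered 15 of 367 limbal, 66 of 1543 basal and 88 of 979 wing cells in the heterozygote, and 12 of 231, 58 of 859 and 111 of 519 in wild type. No surface cell reached it. In basal cells Txnip had 334 CPM in Pax6-high against 37.3 in other basal cells of the heterozygote, and 378 against 34.8 in wild type. In wing cells it had 328 CPM in Pax6-high against 38.8 in other wing cells of the heterozygote, and 292 against 34.8 in wild type, and in limbal cells 570.4 CPM in Pax6-high against 126 in other limbal cells of the heterozygote, and 899.8 against 104 in wild type. These are log2 ratios of 2.18 to 3.44, while the median of all measured genes was 0.24 to 0.37.

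The relation was graded. In wing cells with Pax6 below 125, from 125 to 250, from 250 to 500 and from 500 CPM up, Txnip had 10.8, 41.1, 149.6 and 328 CPM in the heterozygote and 8.96, 34.1, 112 and 292 CPM in wild type. Basal cells gave 18.3, 73.5, 168 and 334 CPM and 15.0, 38.5, 195 and 378 CPM over the same steps, and limbal cells 75.5, 219.8, 538 and 570.4 CPM and 63.2, 163, 413 and 899.8 CPM. Txnip was higher at every step up in Pax6, in all 3 classes and both libraries, although the counting intervals of the upper pair of steps overlapped in limbal cells of the heterozygote. In the lowest Pax6 step, limbal cells still had more Txnip than basal cells, 75.5 against 18.3 CPM in the heterozygote and 63.2 against 15.0 CPM in wild type. A single Pax6 UMI in a shallow cell moves its CPM by a large step, so the lower steps are coarse, and 25 heterozygote and 26 wild-type wing cells lay less than 20% above the upper limit.

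Other members differed in the same cells. Slc2a1 was lower, with 64.8 CPM in Pax6-high against 143 in other basal cells of the heterozygote, and 50.2 against 153 in wild type. Its limbal values were 43.6 CPM in Pax6-high against 156 in other limbal cells of the heterozygote, and 65.8 against 165 in wild type, and in wing cells the gap was below the fold rule. Ldha was higher in wing cells, at 716 CPM in Pax6-high against 366 in other wing cells of the heterozygote, and 627 against 390.4 in wild type, and so was Pkm, at 528 CPM in Pax6-high against 319 in other wing cells of the heterozygote, and 502 against 319.8 in wild type. Beside Txnip, 1 of 8 measured members was past the fold lower in limbal and in basal cells and 2 were higher in wing cells. Among all measured genes 26.0% were higher and 8.32% lower in Pax6-high basal cells, 30.3% and 11.9% in wing cells, and 21.4% and 7.95% in limbal cells. With Txnip counted, 3 of 8 members higher in wing cells is near the share of all genes. Median UMIs of Pax6-high and other basal cells were 10671 and 12053 in the heterozygote, and 14346 and 17796 in wild type. Mitochondrial UMIs were 1.89% and 1.65%, and 2.08% and 1.62%, and their part was not tested.

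**Figure D4:**
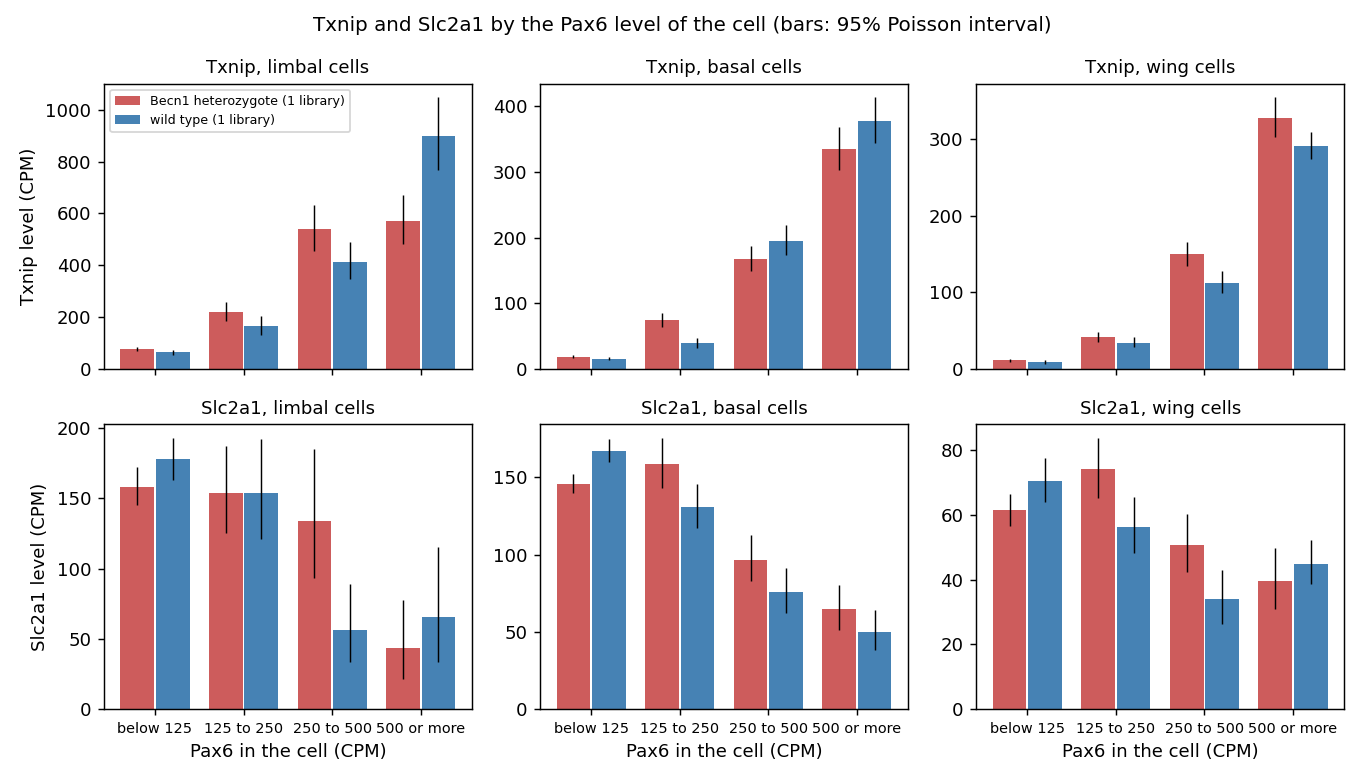
Level of Txnip (top) and Slc2a1 (bottom) in CPM (vertical axis) in limbal, basal and wing cells grouped by their own Pax6 level (horizontal axis), heterozygote in red and wild type in blue, with 95% Poisson intervals. Txnip is higher at each Pax6 step in every panel, and Slc2a1 in basal cells is lowest at the highest step.

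Arrdc4, another arrestin-like protein related to Txnip, had a different pattern. It stood at 411 CPM in surface against 35.9 CPM in basal cells of the heterozygote, and 356 against 24.6 CPM in wild type, and in wing cells at 71.6 CPM in the heterozygote and 60.6 CPM in wild type. In wing cells it was lower where Pax6 was high, at 31.0 CPM in Pax6-high against 76.2 in other wing cells of the heterozygote, and 28.2 against 71.9 in wild type. Txnip and Arrdc4, both known as targets of the same sugar sensors, were highest in different classes, limbal and surface. By the correlation of log2(CPM + 10) over the 10 class and library levels, the genes most like Txnip were Osr2, mt-Co1 and Got2 (Pearson's r 0.939, 0.911 and 0.884). For Slc2a1 they were Gtpbp4, Ube2j2 and Rps3a1 (0.997, 0.997, 0.994), and for Hk2 Rps21, U2af2 and Bhlhe40 (0.994, 0.993, 0.993), of 4332 genes ranked. The 10 points share 2 libraries and their depth, so the values only describe likeness.

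Between the genotypes, Gpi1, Aldoa, Pkm and Ldha lay close together in all 5 classes. Hk2 and Eno1 were each past 1.3 times lower in 3 classes. Txnip was past it in wing and surface cells, in opposite directions, and Slc2a1 in stromal cells. Hk2 had 193 CPM in the heterozygote and 265 CPM in wild type in limbal cells, 174 CPM in the heterozygote and 232 CPM in wild type in basal cells, and 147 CPM in the heterozygote and 205 CPM in wild type in stromal cells. The log2 ratios of heterozygote over wild type were -0.45 (interval -0.58 to -0.32), -0.41 (interval -0.48 to -0.35) and -0.48 (interval -0.59 to -0.38), all past 1.3 times. In wing and surface cells they were -0.29 (interval -0.37 to -0.22) and -0.15 (interval -0.75 to 0.47). The heterozygote was lower in 5 of 5 classes, although at the surface the interval holds 0 and the sign turned to 0.52 when no doublet was removed. Eno1 had 139 CPM in the heterozygote and 181 CPM in wild type in basal cells and 113 CPM in the heterozygote and 157 CPM in wild type in wing cells. Its log2 ratios were -0.39 (interval -0.46 to -0.31) in basal, -0.48 (interval -0.56 to -0.39) in wing and -0.50 (interval -1.05 to 0.064) in surface cells, past 1.3 times in each, and -0.24 (interval -0.42 to -0.046) in limbal and -0.0021 (interval -0.15 to 0.15) in stromal cells. Under TMM scaling the wing ratio of Eno1 was -0.29 and the basal one -0.36, both short of 1.3 times. Most of the Eno1 end is shared with gene copies, so its difference rests on the reads that could be assigned.

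The background differed by class. The share of all measured genes past 1.3 times was 3.11% higher and 4.98% lower in limbal, 2.39% higher and 2.00% lower in basal, 2.22% higher and 5.82% lower in wing, 11.9% higher and 17.0% lower in surface and 2.46% higher and 4.09% lower in stromal cells. Of 8 measured members, 1 was past the fold lower in limbal cells, 2 in basal and 2 in wing cells, and none higher. They were Hk2 in limbal, Hk2 and Eno1 in basal, and Eno1 and Txnip in wing cells. In surface cells, of 7, Txnip was higher and Eno1 lower, and in stromal cells 1 of 9 each way. The member higher in stroma was Slc2a1, with 78.1 CPM in the heterozygote and 56.3 CPM in wild type, a log2 ratio of 0.47 (interval 0.30 to 0.65). The ratio was 0.36 in cells of at least 10000 UMIs. Gpi1, Aldoa, Pkm and Ldha stayed within 1.3 times in all 5 classes, with log2 ratios from -0.24 to 0.20. Hk1 in stroma had -0.11 (interval -0.30 to 0.084). Outside stroma Hk1, and everywhere Pgk1, were too low to compare.

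Of the other glycolytic enzymes, Aldoc in limbal cells was the only one past 1.3 times in any class, with 17.4 CPM in the heterozygote and 23.5 CPM in wild type. None of the 4 other glycolytic enzymes measured in basal cells was past 1.3 times, and their median log2 ratio was 0.012. In stroma the median of 5 was 0.17, with none past the fold. Among arrestin and glucose-sensing genes in basal cells, Arrdc4 was higher, with 35.9 CPM in the heterozygote and 24.6 CPM in wild type. The sugar-responsive factor Klf10 was lower there, with 50.7 CPM in the heterozygote and 71.5 CPM in wild type. Some immediate early genes were lower in the heterozygote. In basal cells 6 of 14 were past the fold lower, with a median log2 ratio of -0.36. In stroma it was 4 of 14 with a median of -0.35, and in limbal cells 1 of 15 with -0.19. Wing cells had 4 of 15 lower and surface cells 4 of 10, and none was past the fold higher in these 5 classes. Fos had 592 CPM in basal cells of the heterozygote and 908 CPM in wild type. The part of these genes in the Hk2 difference was not tested.

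Because the wild-type cells were deeper, the ratios were also taken at like depth. In basal cells of under 10000, of 10000 to 20000 and of over 20000 UMIs, the Hk2 ratio was -0.63, -0.42 and -0.36. In stromal cells of the first 2 bins it was -0.72 and -0.72. The Eno1 ratio in basal cells was -0.42, -0.39 and -0.44. In wing cells it was -0.57, -0.74 and -0.47, and in limbal cells -0.49, -0.32 and -0.05. In stromal cells it was -0.06, 0.08 and 1.03, with 11 heterozygote and 19 wild-type cells in the deepest bin. In limbal cells Hk2 gave -0.25, -0.52 and -0.31, past 1.3 times in the middle bin alone, with 14 wild-type cells in the lowest bin. In wing cells it gave 0.38 (interval -0.20 to 1.07, 22 wild-type cells), -0.14 and -0.24. Hk2 kept its sign in every bin in limbal and basal cells but not in wing cells. Eno1 kept its sign in every bin in limbal, basal and wing cells but not in stromal cells. The lowest bin still held shallower cells in the heterozygote, down to 5430 UMIs, against 8089 in wild type. The Txnip ratio changed sign over the depth bins in limbal, basal and stromal cells. In basal cells it was -1.08, -0.75 and 0.47, which brackets the value of -0.13 over all basal cells. In limbal cells it was -0.85, -0.37 and 0.81, and in stromal cells -0.90, 0.29 and -1.35.

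The Txnip difference in wing cells was set beside Pax6. Over all wing cells Txnip had 68.6 CPM in the heterozygote and 101 CPM in wild type, a log2 ratio of -0.56 (interval -0.67 to -0.45). Pax6-high cells were 8.99% of wing cells in the heterozygote and 21.4% in wild type. Among them the ratio was 0.17 (interval 0.026 to 0.31), and among the other wing cells 0.16 (interval -0.027 to 0.34). The ratio over all wing cells was negative, while both subsets gave positive ones. Over the 3 depth bins the wing value was -1.13, -0.93 and -0.25. The limit on Pax6 was set after the values were seen, and the part of Pax6-high cells or of depth in the difference was not tested. The Eno1 and Hk2 ratios of the other wing cells were -0.41 and -0.37, and in the other basal cells -0.41 and -0.43, near the values over all cells. Among Pax6-high cells Hk2 gave -0.09 (interval -0.30 to 0.12) in wing and -0.16 (interval -0.47 to 0.14) in basal cells. Eno1 gave -0.21 (interval -0.39 to -0.022) and -0.07 (interval -0.33 to 0.18) in the same order. The few Pax6-high limbal cells gave -0.66 (interval -1.26 to -0.08) for Hk2 and 0.55 (interval -0.26 to 1.44) for Eno1.

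**Figure D5:**
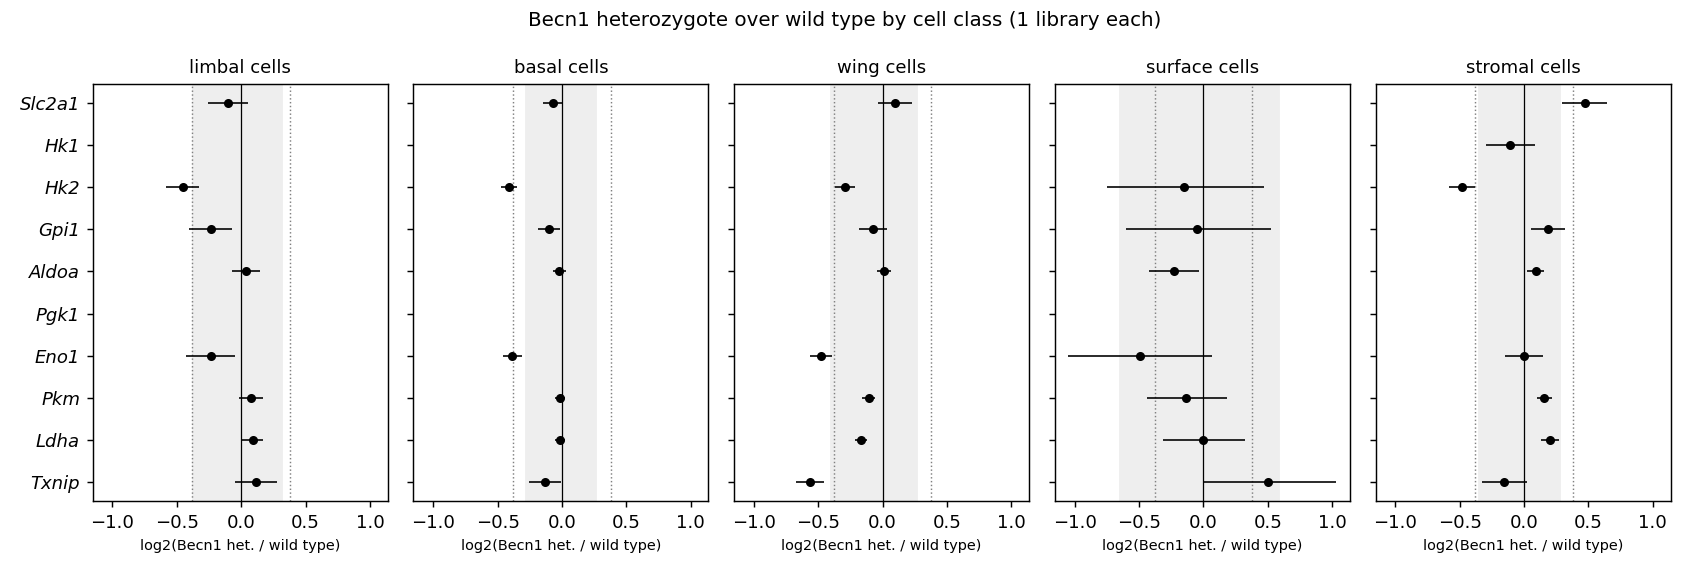
Log2 ratio of heterozygote over wild type (horizontal axis) for each gene measured in limbal, basal, wing, surface and stromal cells, with 95% counting intervals, shading for the 5th to 95th percentile of all measured genes and dotted lines at 1.3 times. Hk2 lies left of the shading in limbal, basal and stromal cells, as does Eno1 in basal cells, and Slc2a1 lies right of it in stroma. In wing cells Eno1 and Txnip lie left of the lower dotted line.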

How the data were processed

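Deposited 10x Genomics matrices of whole-number UMI counts per gene and barcode were used, 1 per animal; the authors made these counts with Cell Ranger 2.1.1 on mm10, per the submitters' processing notes. Which gene annotation the counting used is not given in the sources used here. In all, the matrices held 74363359 UMIs (5155 barcodes) in the heterozygote and 54913980 (2513) in wild type, the lowest barcode having 5430 and 8089 UMIs. Scrublet in scanpy 1.11.5 marked 213 and 51 barcodes as doublets at 0.8% per 1000 barcodes, and these were removed. Counts were summed over the cells of a class and given as CPM; 0.5 was added to each count for log2 ratios, whose intervals are exact and conditional. The ratio and interval code was tested on simulated data. With 1 library per genotype there was no test. TMM factors came from edgeR 4.0.16, and other steps used Python 3.11.15, numpy 2.4.6, scipy 1.17.1 and pandas 2.3.3. Members and gene lists were chosen with earlier results of these data known. Of each list at most 4 genes past the fold with the largest ratios are named, unless said otherwise; the 3 genes most like Hk2, Slc2a1 and Txnip were ranked by correlation. Alternatives changed doublets, class limits, scaling, depth, cell weights and the filter on low levels. Sequences are from RefSeq (GRCm38.p6), and all 10 members matched.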

Additional observations from a re-analysis of the deposited data

Results flagged for a closer look

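The Txnip log2 ratio of heterozygote over wild type had opposite signs in 2 cell classes. It was 0.50 (interval 0.0066 to 1.03) in surface cells and -0.56 (interval -0.67 to -0.45) in wing cells. Each class came from 1 library per genotype, and the difference between the classes was not tested. Surface cells were few, 117 in the heterozygote and 54 in wild type. Among all genes measured there, 11.9% were past 1.3 times higher in the heterozygote. Within wing cells the ratio was 0.17 (interval 0.026 to 0.31) in Pax6-high and 0.16 (interval -0.027 to 0.34) in other cells. No surface cell was Pax6-high. In surface cells of 10000 to 20000 UMIs, with 14 in wild type, the ratio was 2.01 (interval 0.37 to 5.41). In those of over 20000 UMIs it was 0.30 (interval -0.26 to 0.88). The wing ratio in the same 2 bins was -0.93 and -0.25. The part of depth was not tested.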

How the results depend on the processing

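The counts of members past the fold were recomputed under 12 alternatives, 2 of which, the range of 10000 to 20000 UMIs and the removal of Pax6-high cells, were chosen after seeing the data. The following moved by more than 1.5 times, and the cause was not tested. Without doublet removal, surface cells had 2 members higher and 0 lower in the heterozygote than in wild type. Without cells of more than 1 class, 1 was lower in basal cells of the heterozygote. With stricter class limits, 1 was lower in limbal than in basal cells, and between genotypes 0 were lower in limbal, 1 in basal and 1 in wing cells and 0 higher in surface cells. With looser limits, 1 was lower in stromal than in basal cells. With TMM scaling, 1 was lower in limbal and 1 higher in surface than in basal cells, and between genotypes 1 was lower in basal, 0 in wing and 0 in surface cells. Without mitochondrial and ribosomal protein genes in the total, 2 were lower in wing than in basal cells and 1 was lower in basal cells of the heterozygote. Among cells of at least 10000 UMIs, 1 was lower in stromal than in basal cells and 0 were higher in stromal cells of the heterozygote. Between 10000 and 20000 UMIs the same counts were 1 and 0, and 3 were lower in surface cells of the heterozygote. Without cells of at least 500 CPM of Pax6, 2 were lower in wing and 2 higher in stromal than in basal cells, and 1 was lower in wing cells of the heterozygote, where the Txnip log2 ratio turned to 0.16. With no filter beyond 1 UMI, between genotypes 2 were lower in limbal, 4 in wing cells and 3 higher in surface cells. With a filter of 100 CPM, which tests fewer genes, 3 were lower in surface and 0 higher in stromal than in basal cells, and between genotypes 1 was lower in wing, 0 lower and 0 higher in surface and 0 higher in stromal cells. Equal weight per cell moved no count of members. Of the counts for the other gene lists, 84 moved with no filter and 36 with a filter of 100 CPM. The Hk2 ratio of heterozygote over wild type ranged over the alternatives from -0.47 to -0.38 in basal, -0.52 to -0.37 in limbal, -0.72 to -0.38 in stromal, -0.51 to -0.10 in wing and -1.23 to 0.52 in surface cells. No paired analysis was possible because each genotype had 1 library. Surface values rest on 117 and 54 cells and on low levels of most members, not on shallow cells.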
